A study of Rattus norvegicus with 11 samples.

Results

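The genes of the phagocyte NADPH oxidase were followed in rat spinal cord after contusion injury. The members were the rows of the count and FPKM tables named Cybb, Cyba, Ncf1, Ncf4, Rac2, Nox4 and Hvcn1, 7 of the 30443 genes in the tables, and each name matched 1 row. The oxidase carries electrons from NADPH across a membrane to oxygen and so makes superoxide, the source of most oxidants that phagocytes use against microbes. Its membrane core is a heterodimer of gp91phox (Cybb) and p22phox (Cyba). The cytosolic organizer p47phox (Ncf1), p40phox (Ncf4) and a Rac GTPase (Rac2 in blood phagocytes, Rac1 in many other cells) join the core when the cell is activated. Hvcn1 encodes the voltage-gated proton channel that balances the charge moved by the oxidase, and Nox4 encodes a related catalytic subunit that also pairs with p22phox but needs none of the cytosolic subunits. In the spinal cord the phagocyte oxidase is known mainly from microglia and infiltrating macrophages.

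All rats were female Sprague-Dawley, 12 to 14 weeks old at surgery. Control rats were sham-operated, with the lamina removed and the cord left uncontused, and their tissue was taken after 6 months. In the spinal cord injury (SCI) groups the cord was moderately contused at T9, and tissue was taken after 1 (1M), 3 (3M) or 6 (6M) months. Tissue of the epicenter segment, or of an equivalent location in controls, was pooled from 3 rats for each library. There were 3 libraries of control, 3 of 1M, 3 of 3M and 2 of 6M. An outlying 6M library left out by the authors is not used here. Because controls were collected at 6 months, the 1M and 3M rats differed from them in age as well as in injury.

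Library totals ranged from 10057646 to 49986531 counts, with the lowest in the controls. The study lists 5 processing batches. Control replicates 1 and 2 were in batch 1 and control replicate 3 in batch 5, whereas 1M replicates 1 and 2 and all 3M libraries were in batch 2, 1M replicate 3 in batch 3 and both 6M libraries in batch 4. Controls and SCI libraries never shared a batch, so the effect of batch and that of injury cannot be told apart, and a within-batch value could be had for 3M against 1M alone. The control tissue expressed the markers of spinal cord, with summed levels of 5481 to 7542 CPM (counts scaled to 1000000 per library) over 6 neuronal markers and 85580 to 90010 CPM over 5 oligodendrocyte markers.

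RefSeq promoter windows (assembly GRCr8, 250 bases before to 50 bases after the start site) matched 4 of the 7 members, Cybb, Cyba, Ncf1 and Nox4. Those of Cybb (chrX:16065016-16065315, minus strand) and Ncf1 (chr12:28121635-28121934, plus strand) are shown because these genes rose most among the matched members and held matches to the motifs searched. Capitals mark, in order, TGAATCA, GAAAAGGAAA and TTCCTC in Cybb and GAAAGTGAAA in Ncf1.
Cybb: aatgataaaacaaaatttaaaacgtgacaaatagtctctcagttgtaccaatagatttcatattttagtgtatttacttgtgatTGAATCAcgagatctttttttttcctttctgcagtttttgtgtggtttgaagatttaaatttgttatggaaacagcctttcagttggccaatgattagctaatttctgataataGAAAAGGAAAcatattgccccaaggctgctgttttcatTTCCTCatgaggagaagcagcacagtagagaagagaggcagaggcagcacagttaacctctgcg
Ncf1: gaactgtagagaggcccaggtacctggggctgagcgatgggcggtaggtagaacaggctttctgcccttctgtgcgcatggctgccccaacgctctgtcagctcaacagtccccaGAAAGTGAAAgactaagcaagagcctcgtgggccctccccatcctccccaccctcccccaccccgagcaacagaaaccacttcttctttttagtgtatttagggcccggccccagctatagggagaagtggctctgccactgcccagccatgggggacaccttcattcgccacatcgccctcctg
The motifs were searched on both strands. They were TGANTCA (a loose AP-1-like pattern that takes any base at N, here A in Cybb) and a pair of GAAA separated by 2 bases (the core of the interferon-stimulated response element, ISRE). The other was GAGGAA (a PU.1-type core, of which TTCCTC is the reverse complement). In Cybb the matches lay at bases -166 to -160, -52 to -43 and -14 to -9 from the start site, and in Ncf1 the single match lay at -135 to -126. The windows of Cyba and Nox4 held no match to any of the 3. Of 33469 rat promoter windows of the same length, 7.33% held TGANTCA, 3.92% held the ISRE core and 27.6% held GAGGAA. A match is a description of the letters and no evidence of binding.

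To ask whether the oxidase genes differed from control at each time after SCI, edgeR's quasi-likelihood test was run on the deposited counts, with Benjamini-Hochberg adjustment over the 14867 genes whose FPKM passed 1 in at least 1 library. Nox4 did not pass this filter, so 6 of the 7 members were tested. All 6 were higher than control at 1M, at 3M and at 6M at an adjusted p under 0.05, where 25.5%, 29.7% and 26.8% of all tested genes were called higher and 31.5%, 31.4% and 27.2% lower. Levels of the 6 genes did not overlap between the control libraries and the libraries of any SCI time. The share of all tested genes without overlap was not counted, here or for the overlaps given below. The median log2 fold change of the 6 genes was 1.97 at 1M, 1.95 at 3M and 1.5 at 6M, beside medians over all tested genes of -0.05, 0.00 and 0.00. The 3 comparisons share the same control libraries. In bulk tissue, more cells of a type and more RNA per cell cannot be told apart, nor can fewer cells and less RNA per cell. Scaling by total counts in place of TMM moved the median of all genes up by 0.22 and raised the share of genes called higher to 34.7%, 40.2% and 37.0%, with 20.3%, 22.4% and 19.5% lower, and the 6 members were higher under each scaling tried.

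**Figure D1:**
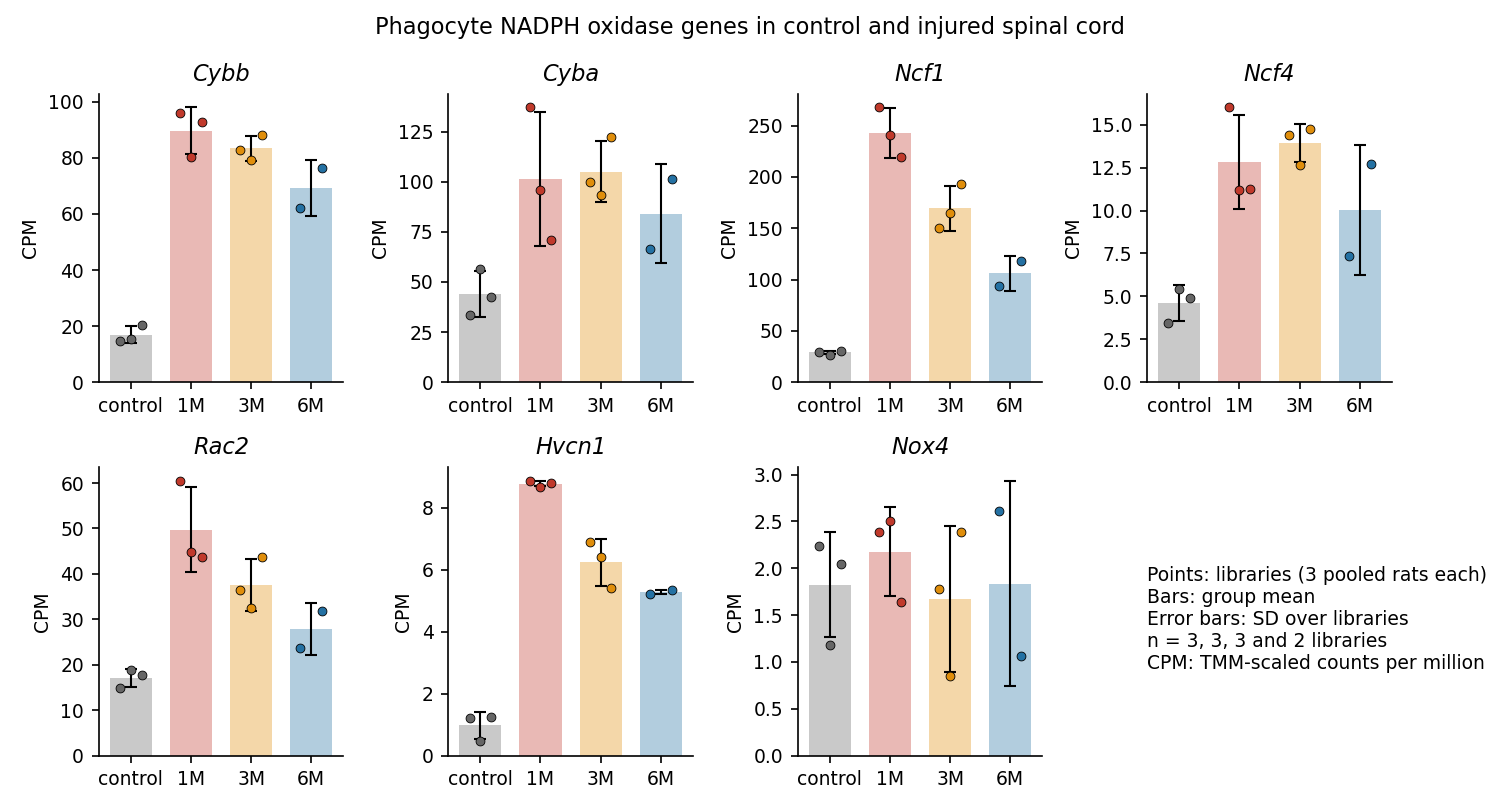
TMM-scaled CPM (vertical axes, linear from 0) of the 7 members in control, 1M, 3M and 6M, with points for libraries, bars for group means and error bars for the SD (n = 3, 3, 3 and 2 libraries). For Cybb, Cyba, Ncf1, Ncf4, Rac2 and Hvcn1 every SCI library lies above every control library, whereas Nox4 stays between 0.848 and 2.61 CPM with the groups overlapping.

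Cybb, the electron-transferring subunit, stood at 14.8, 15.4 and 20.4 CPM in the controls. It reached 96.1, 80.1 and 92.7 CPM at 1M, 82.9, 79.1 and 88.2 CPM at 3M, and 62.1 and 76.2 CPM at 6M. Every SCI library lay far above the highest control, and the 6M libraries were the lowest of the SCI libraries. The log2 fold change against control was 2.40 ± 0.14 (SE) at 1M, 2.29 ± 0.14 at 3M and 2.02 ± 0.15 at 6M, with edgeR adjusted p of 1.32e-06, 1.60e-06 and 1.13e-05. In FPKM, limma gave Cybb values of 2.54, 2.53 and 2.06 on the log2(FPKM + 1) scale and 2.98, 2.97 and 2.47 on the log2(FPKM + 0.1) scale. The FPKM fits also moved the median of all tested genes up, by 0.28 to 0.33 and by 0.36 to 0.41 on the 2 scales. The times did not differ at the threshold, with an adjusted p of 0.132 for 6M against 1M.

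Cyba, the stabilizing partner of gp91phox and of several other NOX proteins, stood at 33.6, 56.4 and 42.3 CPM in the controls. Its SCI values were 137, 96.1 and 71.0 CPM at 1M, 99.6, 93.1 and 122 CPM at 3M, and 66.7 and 102 CPM at 6M. The libraries within a group spread widely, and 6M replicate 1 and 1M replicate 3 were nearest to control replicate 2, the highest control. Its log2 fold change was 1.21 ± 0.26 (SE) at 1M, 1.26 ± 0.26 at 3M and 0.94 ± 0.29 at 6M, with edgeR adjusted p of 0.00327, 0.00210 and 0.0187. The 6M difference was no longer called without control replicate 1 (adjusted p = 0.0543), control replicate 3 (adjusted p = 0.0530) or 6M replicate 2 (adjusted p = 0.190, log2 fold change 0.58).

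Ncf1, the organizer whose phosphorylation starts assembly, was close in the 3 control libraries, at 29.8, 26.9 and 30.1 CPM. It rose to 268, 241 and 220 CPM at 1M, 150, 164.5 and 193 CPM at 3M, and 93.9 and 118 CPM at 6M. No 2 of the 4 groups overlapped, and the order was 1M, 3M, 6M and control. Against control the log2 fold change was 3.07 ± 0.14 (SE) at 1M, an 8.37-fold difference, 2.55 ± 0.13 at 3M and 1.87 ± 0.14 at 6M, with edgeR adjusted p of 2.88e-07, 8.12e-07 and 1.21e-05.

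Ncf4, which binds phosphoinositide on the phagosome membrane, was lower in level. It was counted at 3.45, 5.45 and 4.90 CPM in the controls (37, 46 and 86 counts), at 16.0, 11.2 and 11.3 CPM at 1M, at 14.4, 12.7 and 14.8 CPM at 3M, and at 7.35 and 12.7 CPM at 6M. The groups did not overlap with control, but 6M replicate 1 lay closer to the controls than to 6M replicate 2. Its log2 fold change was 1.49 ± 0.25 (SE), 1.60 ± 0.25 and 1.13 ± 0.27 at 1M, 3M and 6M, with edgeR adjusted p of 0.000765, 0.000341 and 0.00564. Without 6M replicate 2 the 6M value was 0.66 and the adjusted p 0.0858.

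Rac2, the GTPase of blood phagocytes, measured 14.9, 18.8 and 17.7 CPM in the controls, 60.5, 44.8 and 43.8 CPM at 1M, 36.5, 32.5 and 43.8 CPM at 3M, and 23.8 and 31.9 CPM at 6M. The SCI libraries lay above all controls at each time, with 6M nearest to them. The log2 fold change was 1.54 ± 0.18 (SE) at 1M, 1.13 ± 0.18 at 3M and 0.70 ± 0.20 at 6M, with edgeR adjusted p of 8.80e-05, 0.000350 and 0.0115. Without 6M replicate 2 the 6M value was 0.46 and the adjusted p 0.133.

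Hvcn1, the proton channel, was the least counted of the tested members, with 13, 4 and 22 counts in the controls, or 1.21, 0.474 and 1.25 CPM. Its SCI libraries held 8.86, 8.68 and 8.79 CPM at 1M, 6.90, 6.42 and 5.41 CPM at 3M, and 5.23 and 5.33 CPM at 6M. As with Ncf1, none of the 4 groups overlapped. The log2 fold change was 3.08 ± 0.25 (SE) at 1M, 2.59 ± 0.25 at 3M and 2.35 ± 0.27 at 6M, with edgeR adjusted p of 8.60e-06, 2.11e-05 and 9.67e-05. In FPKM, limma gave smaller Hvcn1 values of 2.11, 1.83 and 1.52 on the log2(FPKM + 1) scale and 2.58, 2.28 and 1.93 on the log2(FPKM + 0.1) scale, each of them also called. The upward shift of the median of all genes in these fits is given above for Cybb.

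Nox4, the constitutive oxidase subunit, reached no more than 0.585 FPKM in any library. Its counts ran from 10 to 118 per library, at 2.24, 1.19 and 2.05 CPM in the controls, 2.39, 2.51 and 1.64 CPM at 1M, 1.78, 0.848 and 2.39 CPM at 3M, and 2.61 and 1.06 CPM at 6M. All groups overlapped. With the filter removed, edgeR gave log2 fold changes of 0.36 ± 0.42 (SE), -0.05 ± 0.43 and 0.05 ± 0.47 at 1M, 3M and 6M, with adjusted p of 0.564, 0.979 and 0.987. With these standard errors, a change of the size seen in Rac2 at 6M was not detectable at this depth.

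Rac1, the widely expressed GTPase and no member here, had a log2 fold change of 0.41 ± 0.16 (SE) at 1M (edgeR adjusted p = 0.0496) and values of 0.32 and 0.28 at 3M and 6M that did not pass (adjusted p of 0.104 and 0.207). Over 23 alternative analyses Rac1 was called in 10 at 1M, 7 at 3M and 3 at 6M, with values of 0.23 to 0.85, 0.15 to 0.77 and 0.09 to 0.74. Of 8 further family genes in the tables, Nox1 passed the FPKM filter with at most 6 counts summed over a group, and Nox3, Noxo1, Noxa1, Duox1, Duox2, Duoxa1 and Duoxa2 were not tested and stayed at or below 1.05 CPM in every library.

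**Figure D2:**
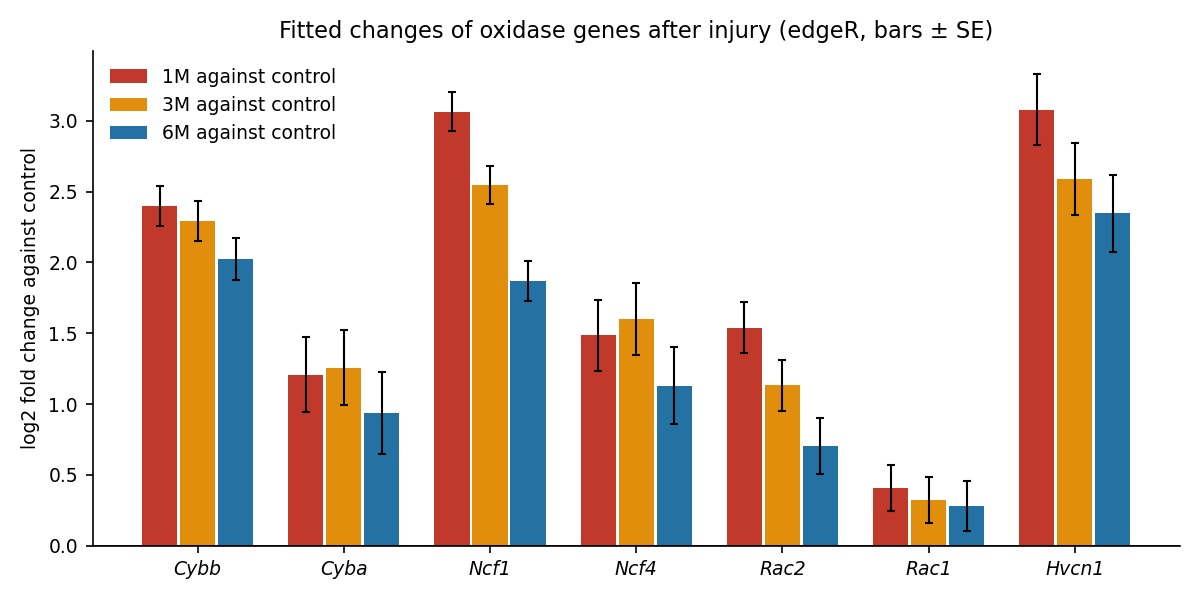
Log2 fold change against control (vertical axis, from 0) of the 6 tested members with Rac1 at 1M, 3M and 6M, as bars with the SE of the edgeR fit. Hvcn1 and Ncf1 have the tallest bars at 1M, 3.08 and 3.07, and Rac1 the shortest, 0.41.

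The times after SCI were then compared with each other. From 1M to 3M, 1 of the 6 tested members fell (Ncf1) and none rose, where 3.30% of all tested genes were called lower and 5.02% higher. Ncf1 fell by 0.52 ± 0.12 (SE) on the log2 scale (edgeR adjusted p = 0.0317), and within batch 2, with 2 libraries of 1M and 3 of 3M, the value was -0.59 with an adjusted p of 0.0664. The call was also lost without control replicate 3, 1M replicate 1, 1M replicate 2, 3M replicate 1 or 3M replicate 2, with adjusted p from 0.0510 to 0.129. From 1M to 6M, 2 members fell and none rose, where 3.95% of tested genes were called lower and 6.12% higher. Ncf1 fell by 1.20 ± 0.14 (edgeR adjusted p = 0.00155) and Rac2 fell by 0.84 ± 0.19 (edgeR adjusted p = 0.0236). The Rac2 call was lost without 1M replicate 1 (adjusted p = 0.0609), 6M replicate 1 (adjusted p = 0.108) or 6M replicate 2 (adjusted p = 0.0533), with Rac2 values of -0.67, -0.64 and -1.09. Hvcn1 had a log2 value of -0.73 ± 0.23 (edgeR adjusted p = 0.0663), and its 1M and 6M libraries did not overlap. From 3M to 6M none of the 6 was called by edgeR, where 0.0202% of tested genes were called higher and 0.0135% lower. Ncf1 and Rac2 had unadjusted p of 0.000599 and 0.0479 in that comparison, and DESeq2's Wald test called Ncf1 (adjusted p = 0.00163). The 1M, 3M and 6M libraries also differed in batch as listed above, and the part of batch in the 6M comparisons was not tested.

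Levels of different genes were compared only as FPKM, the authors' value per transcript length. In the controls the mean FPKM ordered the members as Cyba 48.3 ± 9.8 (SD, n = 3), Rac2 8.36 ± 0.39, Ncf1 6.34 ± 0.98, Cybb 2.06 ± 0.48, Hvcn1 1.88 ± 0.75, Ncf4 1.73 ± 0.29 and Nox4 0.251 ± 0.116. The neighbours Cybb, Hvcn1 and Ncf4 overlapped between libraries, and Cyba and Nox4 stood apart from all others. At 1M the order was Cyba 112 ± 31, Ncf1 65.6 ± 7.3, Rac2 27.5 ± 4.3, Cybb 16.7 ± 0.9, Hvcn1 11.1 ± 0.6, Ncf4 5.45 ± 1.41 and Nox4 0.501 ± 0.145. Ncf1 thus moved above Rac2, and no neighbours in the 1M order overlapped between libraries. At 6M, with 2 libraries, Cyba had a mean of 109 FPKM, Ncf1 28.8, Rac2 16.9, Cybb 11.8, Hvcn1 7.05, Ncf4 4.55 and Nox4 0.335. The ratio of Cyba to Cybb in FPKM was 19.0, 38.1 and 18.1 in the controls and 5.06 to 9.98 in the SCI libraries.

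**Figure D3:**
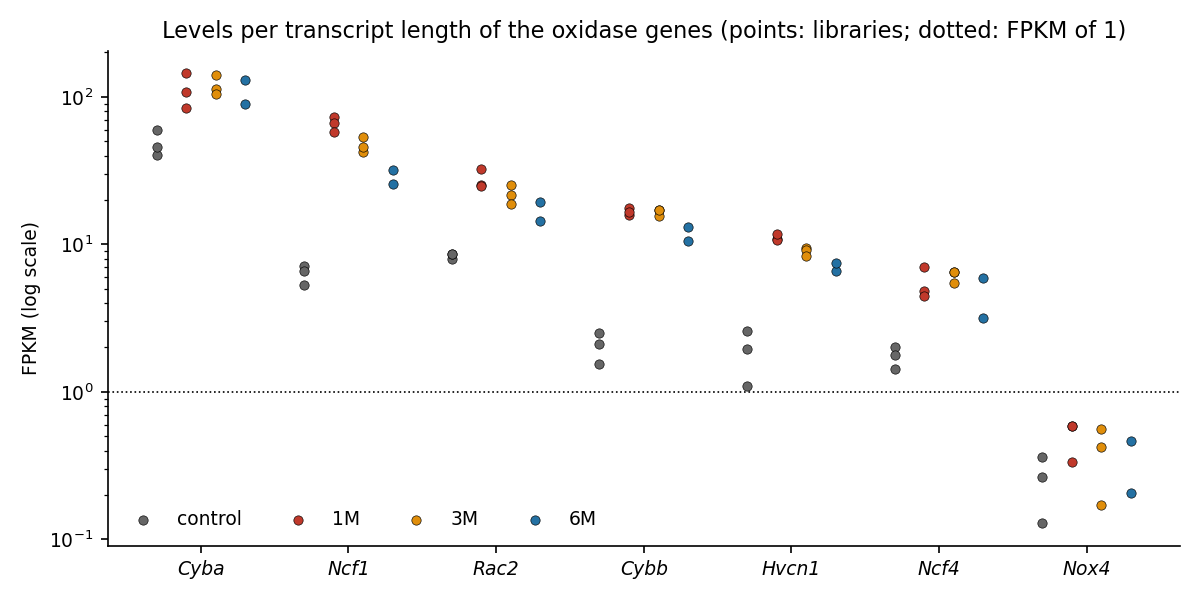
FPKM of the 7 members (vertical axis, log scale) with 1 point per library, coloured by group, and a dotted line at the FPKM of 1 used as filter. Cyba is highest in every group, Ncf1 moves from a mean of 6.34 in control to 65.6 at 1M, and Nox4 stays below the line.

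Whether the members changed by the same factor was asked with ratios within each library, which do not depend on the scaling between libraries. Each count was divided by that of Cybb on the log2 scale with 0.5 added to both, and the 8 SCI libraries were compared with the 3 controls by an exact two-sided permutation test over all relabellings of the libraries, whose smallest possible p is 0.00606. The ratio of Cyba to Cybb was 1.18, 1.87 and 1.05 in the controls and -0.38 to 0.51 after SCI, a difference of -1.13. For Rac2 the control ratios were 0.01, 0.29 and -0.21 and the SCI ratios -1.38 to -0.67, a difference of -1.12. For Ncf4 they were -2.09, -1.49 and -2.05 against -3.07 to -2.52, a difference of -0.86, and for Nox4 the difference was -2.30. In these 4 ratios all 8 SCI libraries lay below all controls (exact permutation p = 0.00606 each, 0.00909 adjusted over the 6 ratios). Cyba, Rac2 and Ncf4 therefore rose by a smaller factor than Cybb. Nox4 itself overlapped between all groups, so its lower ratio shows the rise of Cybb and is no result about Nox4. The ratio of Ncf1 to Cybb differed by 0.28 (exact permutation p = 0.255, adjusted 0.255), a pooled value made of 0.65 at 1M, where all 3 libraries lay above all controls, 0.23 at 3M and -0.18 at 6M. The ratio of Hvcn1 to Cybb differed by 0.56 (exact permutation p = 0.0667, adjusted 0.0800). In FPKM the Hvcn1 ratio turned to -0.54 (exact permutation test, adjusted p = 0.0145), so its direction relative to Cybb depends on which deposited table is read.

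The same ratios were taken to the mean log2 count of 9 markers shared by microglia and macrophages (Aif1, Itgam, Itgb2, Csf1r, Spi1, Laptm5, Tyrobp, Fcer1g and Ptprc). The 9 markers were higher at each time, 9 of 9 called with median log2 fold changes of 1.94, 1.43 and 1.19, and their summed level was 498 to 595 CPM in control, 1929 to 2367 at 1M, 1417 to 1462 at 3M and 1185 to 1400 at 6M. Their part in the changes of the oxidase genes was not tested beyond these ratios. Relative to their mean Cybb was higher by 0.56, Ncf1 by 0.84 and Hvcn1 by 1.11 on the log2 scale, with all 8 SCI libraries above all controls. The markers differed among themselves. Their largest log2 fold changes against control were 2.88 (Ptprc), 2.85 (Itgb2) and 2.44 (Fcer1g), with the others at 2.30 (Tyrobp) or less. The largest were 2.40 for Cybb, 3.07 for Ncf1 and 3.08 for Hvcn1. Rac2 was lower with a value of -0.56 and Nox4 with -1.74, with all 8 SCI libraries below all controls. Each of these 5 had an exact permutation p of 0.00606, or 0.00848 adjusted over the 7 ratios. Nox4 itself overlapped between all groups, so its lower ratio shows the rise of the markers and is no result about Nox4. Cyba differed by -0.57 (exact permutation p = 0.0727, adjusted 0.0848, but -0.65 and 0.0389 without 3M replicate 3) and Ncf4 by -0.30 (exact permutation p = 0.267, adjusted 0.267). In FPKM the Hvcn1 value was 0.28 and did not pass (exact permutation test, adjusted p = 0.139), and the Cyba value was -0.87 and passed (adjusted p = 0.0212). These are pooled over the times, and the difference between times was not tested. At 1M, 3M and 6M alone the Cybb value was 0.27, 0.76 and 0.69, that of Ncf1 0.92, 0.99 and 0.51, and that of Rac2 -0.62, -0.43 and -0.66, and no time alone can pass the test with so few libraries.

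**Figure D4:**
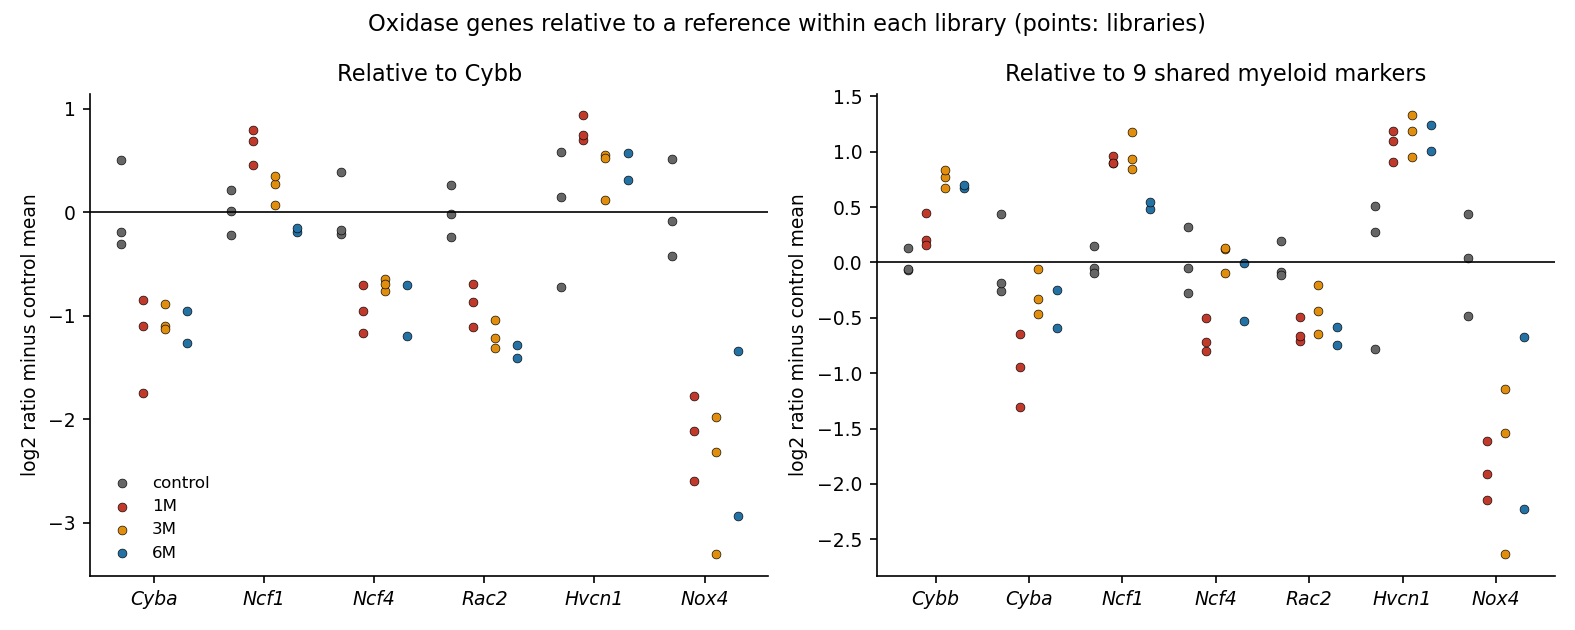
Log2 ratio of each member to Cybb (left) and to the mean of 9 shared myeloid markers (right) in each library, with the mean of the controls set to 0 (vertical axes). Points are libraries coloured by group. In the left panel the SCI points of Cyba, Ncf4, Rac2 and Nox4 lie below all control points, and in the right panel those of Cybb, Ncf1 and Hvcn1 lie above and those of Rac2 and Nox4 below.

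Markers of other cell types were counted beside the 25.5%, 29.7% and 26.8% of all tested genes called higher, and the 31.5%, 31.4% and 27.2% called lower, at 1M, 3M and 6M. Of 10 macrophage markers 7, 8 and 8 were higher and 1 lower at 1M, 3M and 6M, with summed levels of 335 to 464 CPM in control and 3196 to 4812, 2998 to 3188 and 2018 to 2425 CPM at the 3 times. Gpnmb, Lgals3 and Lyz2 made up most of the 1M sum, with means of 1662, 913 and 891 CPM within a mean sum of 3922 CPM. Of 9 tested microglial markers 8 were higher at each time. Among 7 tested neutrophil markers only Csf3r, a receptor also found on other myeloid cells, was higher, and 5, 0 and 6 were lower at 1M, 3M and 6M, with medians of -2.17, -0.93 and -3.06. The summed neutrophil level was 23.7 to 71.8 CPM in control, 44.3 to 58.4 at 1M, 44.7 to 72.1 at 3M and 31.1 to 32.6 at 6M. These sums include Csf3r. Its mean was 9.01, 41.0, 28.9 and 26.4 CPM in the 4 groups, within mean sums of 55.5, 51.1, 54.9 and 31.8 CPM. Of the defining neutrophil genes, Ltf had 2 counts in all libraries together and Elane did not exceed 0.474 CPM. B cells also use the oxidase and the proton channel, and of 3 tested B cell markers only Cd22 was higher, with 0, 0 and 2 lower. Of 8 T cell markers 3, 5 and 3 were higher. Mean levels of Cd4, Cd8a and Cd8b were 16.47, 0.596 and 0.119 CPM in control and 91.79, 10.35 and 8.461 at 1M. Those of Cd3d, Cd3e, Cd3g, Cd247 and Lck were 0.245, 0.387, 0.537, 0.404 and 2.26 CPM in control. At 1M they were 0.202, 0.635, 0.729, 0.400 and 2.11 CPM. In the same order they were 0.858, 1.741, 1.475, 1.132 and 4.661 CPM at 3M, and 0.530, 1.089, 1.072, 0.475 and 3.012 CPM at 6M. Of 7 endothelial markers 4, 6 and 6, of 8 mural cell markers 4, 6 and 7, and of 5 fibroblast markers 3, 5 and 2 were higher, and none of these was lower. All 5 oligodendrocyte markers were lower at each time, and of 5 astrocyte markers 1, 2 and 3 were higher and 1, 0 and 0 lower. The part of these cell types in the oxidase values was not tested.

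Of 20 tested genes that act upstream of the oxidase, in its activation and priming, 14, 13 and 12 were higher and 2, 3 and 2 lower at 1M, 3M and 6M, with medians of 1.17, 0.84 and 0.73. Among all tested genes 25.5%, 29.7% and 26.8% were called higher and 31.5%, 31.4% and 27.2% lower. Dock2 and Vav1, exchange factors that load Rac with GTP, had log2 fold changes of 3.60 ± 0.40 (SE) and 2.64 ± 0.13 at 1M and of 2.51 ± 0.44 and 1.87 ± 0.13 at 6M. Pik3r5 and Pik3cg, the regulatory and catalytic subunits of the phosphoinositide 3-kinase under G protein-coupled receptors, rose by 2.58 ± 0.18 and 2.54 ± 0.15 at 1M. Prkcb, a protein kinase C isoform that phosphorylates p47phox in neutrophils and is also abundant in neurons, was lower with -0.78 ± 0.15, -1.34 ± 0.15 and -1.23 ± 0.17, as was Pak1 with -0.83 ± 0.15, -1.31 ± 0.15 and -1.18 ± 0.17. All of these values passed an edgeR adjusted p of 0.05. The 6 neuronal markers were all lower at each time, with medians of -1.37, -2.51 and -2.48. The part of neurons in the Prkcb and Pak1 values was not tested.

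Of 24 tested antioxidant genes 6, 7 and 7 were higher and 9, 9 and 7 lower at 1M, 3M and 6M, which is near the 25.5%, 29.7% and 26.8% higher and 31.5%, 31.4% and 27.2% lower among all tested genes, with list medians of -0.17, -0.05 and -0.03. Gpx3, the secreted glutathione peroxidase, rose by 1.08 ± 0.24 (SE), 2.21 ± 0.25 and 2.57 ± 0.27 on the log2 scale. Hmox1, which degrades heme, rose by 1.57 ± 0.16, 1.32 ± 0.16 and 0.86 ± 0.18, and Ucp2 and Sod3 also rose at the 3 times. These antioxidant genes were named for the largest changes among the called genes of the list, and none of its lower genes is named. Among 6 tested genes of other oxidant-producing enzymes, Maob, Maoa and Nos3 were higher at each time. Mpo, the neutrophil enzyme that makes hypochlorous acid from the oxidase's product, was lower at 1M (-1.66 ± 0.55) and 6M (-2.90 ± 0.72) and did not pass at 3M (edgeR adjusted p = 0.130).

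The genes whose profile over the 11 libraries was most like that of each tested member were found by the root mean square difference of centred log2 CPM among tested protein-coding genes. Galns (0.08) and Hcls1 (0.10) were among the genes nearest to Rac2. The nearest were Fyb (0.13), Rab32 and Cnr2 for Cybb, Lyl1 (0.13), Cd63 and LOC100360087 for Cyba, and Adcy4 (0.14), Rspo1 and Slc37a2 for Ncf1. For Ncf4 they were Gadd45a (0.15), Gna15 and Cebpa, and for Hvcn1 Cd53 (0.17), Plxnc1 and Soat1. Among the 6 tested members, Cyba and Ncf4 were closest (0.19) and Cyba and Hvcn1 farthest apart (0.94).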

How the data were processed

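RNA-seq of pooled rat spinal cord was analysed from 11 libraries. The authors sequenced poly-A selected RNA as paired-end reads and aligned them to Rnor6 with TopHat2 2.1.0. The deposited counts were made by the authors with HTSeq and are not normalized. For HTSeq, neither version nor use of strand is given in the sources used here. Overlapping genes may therefore share or lose reads. The deposited FPKM values came from Cufflinks 2.2.1, and the authors set values below 0.1 to 0.1, which 41.8% of the values equal. In 60 genes the counts were 0 throughout although FPKM passed 1.

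The 14867 genes that passed an FPKM of 1 in any library entered edgeR 4.0.16 in R 4.3.3 (TMM, robust quasi-likelihood fit, all 11 libraries, condition only). Adjustment was by Benjamini-Hochberg over these genes, with a call at 0.05. CPM are counts scaled to 1000000 per TMM-scaled library. Ratios used exact permutation tests (SciPy 1.17.1). The edgeR and permutation steps were tested on simulated data. The spread behind each p-value is that between pools of 3 rats, and library totals of 10057646 to 49986531 limit the precision of low genes, most of all in the controls. Alternatives were other scalings, DESeq2 1.42.0, limma 3.58.1 on log2(FPKM + 1) and log2(FPKM + 0.1), other filters and thresholds, a fit to the compared groups alone, a replicate block, libraries of 1 batch per group, 1M replicate 1 divided by 2 because its total exceeds its listed read pairs, and leaving out each library.

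The members and the 16 other gene lists were chosen with earlier results of these data known. All members are named. Examples from a list were taken from its up to 4 called genes with the largest change against control, not all of which are named, with Rac1 and cell type markers near 0. Results for a few genes were left out. Csf3r, Lyz2, Prkcb, Pak1 and the untested family genes fall outside this rule and were named after their values were seen. Pak2 matched 2 rows and was left out, and Cybc1, Nos2 and Pecam1 were matched to no row. Libraries of 1 group differed by more than sampling noise (chi-square per gene of 9.45 to 73.2 over 10 pairs), so each counted as a replicate.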

Additional observations from a re-analysis of the deposited data

Results flagged for a closer look

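Among the members, 3 effects differed between times after SCI by a test of the difference itself (edgeR's quasi-likelihood test, adjusted over all tested genes). The log2 level of Ncf1 differed by -0.52 between 3M and 1M (adjusted p = 0.0317) and by -1.20 between 6M and 1M (adjusted p = 0.00155). That of Rac2 differed by -0.84 between 6M and 1M (adjusted p = 0.0236). Of all tested genes, 3.30% were called lower and 5.02% higher at 3M against 1M, and 3.95% and 6.12% at 6M against 1M. Over 24 alternatives the Ncf1 call was kept in 14 at 3M against 1M and in 24 at 6M against 1M. The Rac2 call was kept in 18. No 2 times overlapped in CPM for Ncf1, nor did 1M and 6M for Rac2. The summed level of the 9 shared myeloid markers was 1929 to 2367 CPM at 1M, 1417 to 1462 at 3M and 1185 to 1400 at 6M, and its part in these differences was not tested.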

How the results depend on the processing

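Against control, 425 of 432 member values over 24 alternatives kept their direction and their side of the threshold, 7 kept only their direction and 0 reversed. At 6M against control the log2 fold changes of Cyba, Ncf4 and Rac2 were lowest without 6M replicate 2, at 0.58, 0.66 and 0.46. The Cyba call at 6M was lost without control replicate 1 or control replicate 3. At an adjusted p under 0.01 and fold over 2 the number of members called at 6M against control was 4, where Cyba and Rac2 were lost. Of all tested genes 20.1% were called at that threshold, beside 54.1% in the main fit. For 3M against 1M the number of members called was 2 with DESeq2, where 16.3% of all tested genes were called, beside 8.32% in the main fit. It was 0 with limma on log2(FPKM + 1) (5.37% of all tested genes) and on log2(FPKM + 0.1) (3.46%). It was also 0 with the replicate block (4.25%), with 1 batch per group (2.39%), and at an adjusted p under 0.01 and fold over 2 (0.632%). When 1 control, 1M or 3M library was left out it was 0 to 1, where 1.82% to 10.7% of all tested genes were called. For 6M against 1M the number was 4 with DESeq2, where 17.2% of all tested genes were called, beside 10.1% in the main fit. It was 1 with only the 2 groups compared (3.17%), with the replicate block (6.01%) and at the stricter threshold (1.79%). It was 1 to 3 when 1 control, 1M or 3M library was left out, where 5.39% to 12.5% of all tested genes were called. For 6M against 3M DESeq2 called 1, where it called 0.915% of all tested genes, beside 0.0336% in the main fit. With each time alone against control, 0 ratios to Cybb and 0 to the myeloid markers passed, because 3 libraries against 3 or 2 cannot go below an exact p of 0.10. With 1 library left out, 4 ratios to Cybb passed each time and 5 to 6 to the myeloid markers, the 6 without 3M replicate 3, where the Hvcn1 ratio to Cybb was 0.62 with an adjusted p of 0.05.

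Some values changed sign. In FPKM the ratio to Cybb was -0.0094 for Ncf1 and -0.54 for Hvcn1, at 6M alone it was -0.18 for Ncf1, and at 3M alone the ratio of Ncf4 to the myeloid markers was 0.055. Cyba at 3M against 1M was -0.15 with 1 batch per group, -0.15 without 1M replicate 3 and -0.08 without 3M replicate 3, within a range of -0.15 to 0.33 when 1 library was left out. Cyba at 6M against 1M was 0.011 without 1M replicate 1 and 7.38e-05 without 6M replicate 1, within a range of -0.63 to 0.011. The cause was not tested.

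In limma on log2(FPKM + 0.1), which moved the median of all genes up by 0.36 to 0.41, the 1M value was 2.98 for Cybb and 2.58 for Hvcn1, beside 2.54 and 2.11 on log2(FPKM + 1). The log2(FPKM + 1) scale moved that median up by 0.28 to 0.33. Over all genes, 1237 were called at 3M against 1M, 2428 by DESeq2 and 632 with the replicate block, and 1497, 2553 and 893 at 6M against 1M. Same-numbered libraries deviated with a correlation of -0.47 to 0.34 over 15 pairs, so the numbers were not taken as pairs, and the block moved the Ncf1 3M against 1M adjusted p to 0.0649 and that of Rac2 at 6M against 1M to 0.0652.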
